A study of Mus musculus with 4 samples.

Results

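Def8, Sfi1 and Hjurp are the mouse genes to which the most listed single-base substitutions were annotated in RNA of 2 cancer cell lines. All records annotated to these genes in the variant lists of both lines were taken, which gave 44 records at 42 sites out of 11806 records at 10545 sites. MBT2, a bladder cancer line whose library titles read MBT2#63, contributed 17 of its 6361 records, and LM8, an osteosarcoma line, contributed 27 of its 5445 records. The labels do not explain the number in that title. Both lines are syngeneic with C3H/HeN mice and received no treatment. The medium was RPMI-1640 for MBT2 and, for LM8, MEM buffered with HEPES at 24 mM, and both media held 10% serum and 1% penicillin and streptomycin. Poly(A) RNA of 2 samples per line was made into directional libraries, so the orientation of a read pair tells which DNA strand was transcribed. Nothing in the labels says that the samples came from separate cultures, so their spread may be technical.

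The 3 genes have unrelated roles. Def8 encodes an adaptor that acts with the small GTPase Rab7 and with Plekhm1 on the position of lysosomes. Sfi1 encodes a repeat protein that binds centrins at centrioles, the cores of the centrosome. Hjurp encodes the chaperone that deposits the histone H3 variant CENP-A at centromeres. A substitution read in RNA can be a base of the strain or of one tumour clone, a base of another gene copy whose reads align to the same place, or a base altered in the RNA itself. A-to-G on the RNA strand is the class made by adenosine deamination. The reference genome is that of another strain, C57BL/6J, and no matched normal sample entered the calling.

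The genes were chosen by their number of listed substitutions in either line, so these counts are a description. Def8 had 5 substitutions in MBT2 and 12 in LM8. Sfi1 had no listed record in MBT2, and 10 substitutions and 1 insertion in LM8. Hjurp had 12 substitutions in MBT2 and 4 in LM8. Among the genes with a substitution, 78.2% of 2301 in MBT2 and 81.8% of 2044 in LM8 had a single one. Just inside the choice stood Sfi1 in LM8 with 10, and just outside it stood Rn18s-rs5, an annotated ribosomal RNA-related locus, with 9 in LM8. In MBT2 the next gene after Hjurp was ENSMUSG00000095041 with 7 substitutions. No record of Sfi1 in the MBT2 list means only that no site passed the authors' filters there. Reads of MBT2 over the Sfi1 sites were not analysed here.

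The lists held 742698 and 790762 reads at listed sites in the MBT2 libraries and 596298 and 571088 in the LM8 libraries. The median substitution was covered by 129 reads in MBT2 and 105 reads in LM8, over both libraries of a line. The share of alternative reads differed between the 2 libraries of a line at no listed site after Benjamini-Hochberg adjustment of Fisher's exact tests (0% of 6361 in MBT2 and 0% of 5445 in LM8). Sites with few alternative reads could hardly be called. At the Sfi1 site H1171, 4% and 18.5% in the LM8 libraries gave p = 0.193 by Fisher's exact test without adjustment. Without adjustment, 1 of the 17 member records of MBT2 passed p under 0.05, against 3.76% of the line's records, and 1 of the 27 of LM8, against 3.89%. Both were low-share Def8 sites. Intervals below are exact Clopper-Pearson 95% intervals, and they cover counting error only, because the reads come from amplified libraries without molecular identifiers.

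Sequences around 5 of the 10 Sfi1 coding sites and all 3 Hjurp coding sites are shown. The Sfi1 sites are the 2 where the pseudogene Gm2420 holds the alternative base, the site with the most alternative reads, and the neighbouring pair. The Hjurp sites are the codons whose shares are compared. Each is 29 bases of the gene's reference transcript in RNA sense (written with T), from GENCODE M21, with the substituted base in capitals. The sites were found by codon and not by coordinate, since that annotation belongs to GRCm38 and the lists to GRCm39. For the Sfi1 codons H1171 and R711Q, the aligned stretch of Gm2420 is added, with the base opposite the site in capitals. Gm2420 is annotated in GENCODE M21 as a transcribed unprocessed pseudogene on chromosome 5.
Sfi1 H1171: tccgaggaccttcaCctagaagagcaggt
Gm2420 opposite H1171: tctaaggaccttcaTctagaagagcaggt
Sfi1 E1110G: aagcacccggactgAgcctgtttatggct
Sfi1 R711Q: gcagatatattaccGacaaaaggaggcag
Gm2420 opposite R711Q: gcagatatattaccGacaaaaggaggcag
Sfi1 A292G: acaattccaccgtgCtactgtgctccaga
Sfi1 R291H: tgtacaattccaccGtgctactgtgctcc
Hjurp R350H: tgaaggaagcaaacGccaagtccataaat
Hjurp G337D: tccccacaagacagGcttagaactgaaaa
Hjurp V164: gtcatgacttgggtTccttccgtgacctc
At H1171 the listed change is C-to-T, and Gm2420 holds T there, with 2 other differences from Sfi1 in the 28 flanking bases. At R711Q the listed change is G-to-A, and Gm2420 holds the same G as Sfi1, with 0 differences in the flanks. The A292G and R291H windows overlap, since these codons are neighbours.

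**Figure D1:**
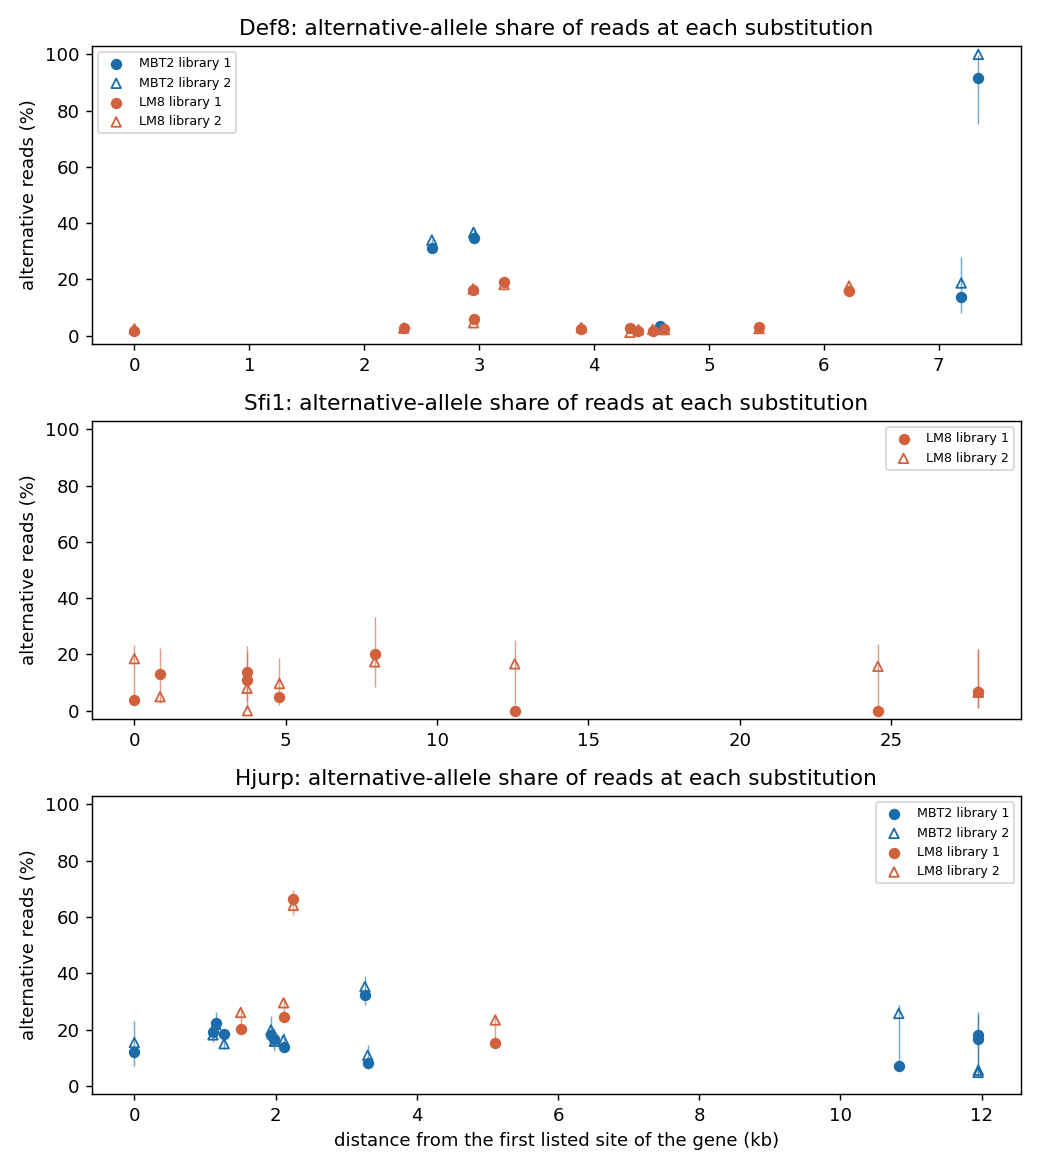
Alternative reads as a percentage of reads (vertical axes) at every listed substitution, against the distance in kilobases from the first listed site of the gene on the forward strand (horizontal axes), for Def8, Sfi1 and Hjurp. Filled circles are library 1 and open triangles library 2 of MBT2 (blue) and LM8 (orange), and thin lines are exact 95% intervals of the summed reads. In Def8 most LM8 sites lie under 10%, Sfi1 has LM8 sites only, and in Hjurp the LM8 site at 65.3% stands above all others.

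By median depth, the sites annotated to Def8 were the most deeply read of the 3 genes, and their reads came from the other DNA strand. The orientation of these reads was thus opposite to that of Def8 mRNA, and which transcript they came from was not tested. All 17 records lie in the first intron of transcript ENSMUST00000212883 on chromosome 8 (GRCm39), with MBT2 sites from 124156452 to 124161208 and LM8 sites from 124153863 to 124160083. Def8 is annotated on the forward strand. At coding and 3′ UTR sites of forward-strand genes, the median share of reads in F1R2 pairs (read 1 forward and read 2 reverse on the genome) was 0% in both lines, and at those of reverse-strand genes it was 100% in both. At the Def8 sites, 9161 oriented reads of MBT2 were F1R2 and 0 were F2R1, and in LM8 28863 were F1R2 and 11 were F2R1. The reads at all 5 MBT2 sites and all 12 LM8 sites therefore had the orientation of reverse-strand RNA. Over all genic substitutions with a known read strand, 5.32% in MBT2 and 7.41% in LM8 had reads of the strand opposite to the annotated gene. Among intronic substitutions outside Def8, that share was 50% of 124 in MBT2 and 68.2% of 107 in LM8. At coding and 3′ UTR substitutions it was 0.716% of 2373 in MBT2 and 0.971% of 2059 in LM8. Opposite-strand reads were thus common among intronic records of other genes too, and scarce at coding and 3′ UTR sites.

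**Figure D2:**
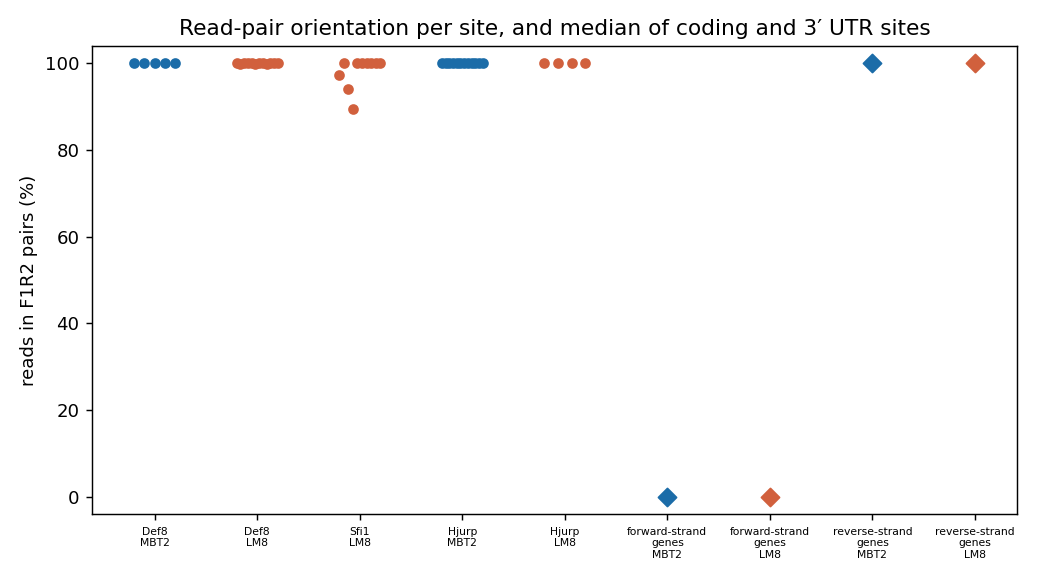
Percentage of oriented reads in F1R2 pairs (vertical axis) at each member substitution, by gene and line, with MBT2 in blue and LM8 in orange. Diamonds give the median over coding and 3′ UTR substitutions of forward-strand genes and of reverse-strand genes in each line. Def8 is a forward-strand gene, and its points sit at or near 100%, the level of the reverse-strand genes.

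Depth separated the Def8 sites from other introns. In MBT2 the first 3 sites had 3301, 3040 and 3308 reads, and the last 2, at 124161059 and 124161208, had 61 and 20. In LM8 the 12 sites had 2127 to 3373 reads, with a median of 2474, and ranked between 1 and 18 in depth among the line's 2802 substitutions. Intronic substitutions outside Def8 had a median of 38 reads and at most 1097 in MBT2, and a median of 42 and at most 845 in LM8. Each of the 12 LM8 sites and 3 of the 5 MBT2 sites thus exceeded the deepest other intronic substitution of its line. The number of gene copies behind these reads was not tested.

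**Figure D3:**
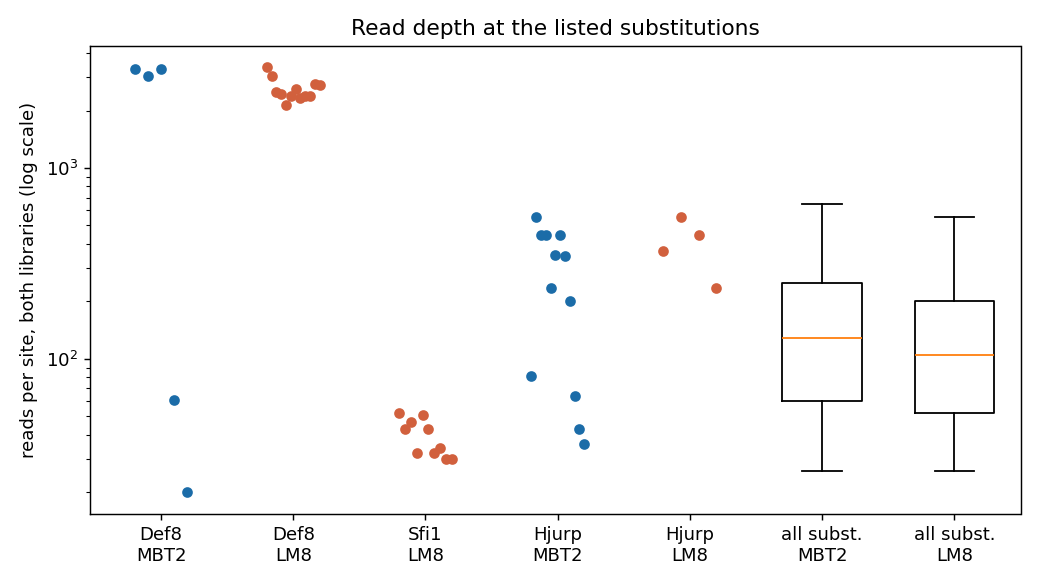
Reads per substitution over both libraries of a line (vertical axis, log scale), by gene and line, with each point 1 substitution. Boxes give the median and quartiles of all substitutions of each line, with whiskers at the 5th and 95th percentiles. The Def8 sites of LM8 lie between 2127 and 3373 reads and the Sfi1 sites between 30 and 52, on either side of the median of all LM8 substitutions at 105.

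The 3 deep Def8 sites of MBT2 had unequal shares. At 124156452, alternative reads (G-to-A on the RNA strand) made up 31.3% and 34.0% in the 2 MBT2 libraries, or 1080 of 3301 reads. At 124156815, also G-to-A, they made up 34.9% and 36.8%, or 1090 of 3040. Both sites therefore carried the alternative base in about 1 read of 3, near the median share of 30.7% over the 83 MBT2 substitutions outside Def8 with 1000 reads or more. At 124158442 the change was A-to-G, with 3.60% and 2.38% in the MBT2 libraries, and this is the MBT2 site where the libraries differed without adjustment (Fisher's exact test, p = 0.0402). The outlying sites read 13.8% and 18.8% (C-to-G at 124161059) and 91.7% and 100% (G-to-A at 124161208, 19 of 20 reads, interval 75.1% to 99.9%). The median distance between the ends of a fragment on the genome was 8381 bases for alternative reads and 8337 for reference reads at 124161208, while for alternative reads it was 267 to 479 bases at the other Def8 records of both lines. The fragments at this last site thus spanned far more genome than those of the deep stretch.

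In MBT2, 3 of the 5 Def8 substitutions were G-to-A on the RNA strand (60% against 24.0% of all MBT2 substitutions). In LM8, 9 of 12 were G-to-A (75% against 27.1%) and the other 3 were C-to-T. A-to-G made up 1 of 5 in MBT2 and 0 of 12 in LM8, against 22.2% and 17.5% of all substitutions of these lines. Of the LM8 sites, 9 of 12 lay under 10%, as did 2020 of all 2802 LM8 substitutions and 24 of the 38 outside Def8 with 1000 reads or more, so low shares were as usual here. Of these 9, 8 were G-to-A (88.9%). For comparison, G-to-A made up 29.5% of all LM8 substitutions under 10%, and 37.5% of the 24 under 10% that had 1000 reads or more and lay outside Def8. Counted by the annotated strand of Def8 instead, the G-to-A changes are C-to-T, and the G-to-A share is 0% in MBT2 and 25% in LM8.

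The low-share G-to-A sites of LM8 resembled each other. At 124153863 the share was 1.69% and 2.44% in the 2 LM8 libraries, at 124156207 2.73% and 2.73%, and at 124159300 3.01% and 2.57%. At 124157753, 64 of 2392 reads were alternative (2.68%), at 124158374 46 of 2380 (1.93%), and at 124158476 54 of 2392 (2.26%). These 6 sites all fell between 1.93% and 2.81%, with 46 to 83 alternative reads each. At 124158177, 2.58% in library 1 and 1.20% in library 2 differed without adjustment (Fisher's exact test, p = 0.0143).

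4 LM8 sites stood apart from that low range. The C-to-T sites at 124157080 and 124160083 read 19.0% and 18.2%, and 15.9% and 17.7%, in the LM8 libraries. The G-to-A site at 124156812 read 16.3% and 16.7%, and 124156815, 3 bases away, read 6.07% and 4.60%. These neighbouring sites were not joined in a phase set by the caller, and their intervals, 15.0% to 18.0% and 4.51% to 6.35%, did not meet. The remaining C-to-T site, 124158249, was low at 1.58% and 2.13%.

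The authors' files also give a population allele frequency for each record. In 97.2% of MBT2 records and 97.0% of LM8 records this field holds the same value, 2.02 on a negative log10 scale, and any other value is called a listed frequency here. The file headers do not name its source. A listed frequency was present at 3.85% of substitutions in MBT2 and 3.71% in LM8. In Def8 it was present at 1 of 5 sites in MBT2, the G-to-A site 124156452 (0.0162), and at 4 of 12 in LM8. All 3 C-to-T sites of LM8 had one (0.198 to 0.5), against 1 of the 9 G-to-A sites (124158374, 0.0151).

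The site 124156815 was listed in both lines, so it allows a direct comparison. Alternative reads were 34.9% and 36.8% in MBT2, against 6.07% and 4.60% in LM8. The libraries of the lines did not overlap there, as at 27.8% of the 230 shared substitutions and 37.8% of all 1261 shared sites. The difference was 30.5 percentage points, with an adjusted p of 9.18e-178 by Fisher's exact test on summed reads with Benjamini-Hochberg adjustment over all 1261 shared sites. That test called 7.3% of shared sites and 5.65% of shared substitutions, with 4.35% higher and 1.3% lower in MBT2. It compares the reads of these libraries, and over 2 against 2 libraries an exact two-sided permutation test cannot give a p below 0.333.

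The Sfi1 substitutions lay in exons, on the annotated strand and at low depth. The 10 substitutions of LM8 lay between 3082249 and 3110125 on chromosome 11 (GRCm39), in coding exons 10 to 32 of ENSMUST00000081318, which is on the reverse strand. 7 changed an amino acid and 3 did not. Reads covering a site numbered 30 to 52, with a median of 38.5, and alternative reads numbered 2 to 8. The median share was 9.06% against 5.88% over all LM8 substitutions, whose median depth was 105 reads. Intronic LM8 substitutions outside Def8, at a median of 42 reads, had a median share of 11.1%. The higher Sfi1 median was thus not separated from its low depth. Because each Sfi1 site rests on so few reads, the intervals are wide, and 3 of the 10 sites had 0 alternative reads in one of the libraries.

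R711Q had the most alternative reads, 4 in each LM8 library, or 8 of 43 (18.6%, interval 8.39% to 33.4%). H1171, a synonymous site, had 1 and 5 alternative reads, L823F had 3 and 2, and E1110G had 3 and 1. Q750R had 1 and 3. These 5 sites were thus seen in both libraries. T817 (2 and 0), S571 (0 and 3) and T380I (0 and 3) had alternative reads in 1 library only, and their shares, 6.25%, 9.38% and 8.82%, have intervals that reach down to 0.766%, 1.98% and 1.86%. A292G and R291H, 3 bases apart, were placed in the same phase set, with 1 alternative read in each library at both.

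By class on the RNA strand, 4 of the 10 Sfi1 substitutions were C-to-T, 3 were A-to-G (E1110G, T817 and Q750R), 2 were G-to-A and 1 was C-to-G. A-to-G made up 30% here and 17.5% of all LM8 substitutions, with only 10 sites behind the first share. Listed population frequencies were present at 3 of 10 sites, H1171 (0.433), E1110G (0.0295) and L823F (0.0191). The other 7 had the file's usual value. For alternative reads the median distance between fragment ends on the genome was 615 to 7790 bases, which is longer than at the deep Def8 sites.

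Other transcripts with sequence like Sfi1 were looked for around each site. Of the 10 alternative 51-base windows, 0 were found exactly in a transcript of another gene, against 0.402% of the 1990 LM8 substitutions that could be placed. At 90% identity or more over 75 bases, 7 of the 10 sites had a match in 1 other gene, Gm2420, against 12.7% of placed LM8 substitutions with a match in any other gene. Gm2420 held the alternative base at 2 of the 7 (H1171 and E1110G), and the reference base at the other 5. Over all placed LM8 substitutions, another gene held the alternative base in 2.18%. Both sites where Gm2420 held the alternative base are among the 3 with a listed population frequency. T380I, A292G and R291H had no such match. Along the whole transcript, Gm2420 aligned to 2262 of 3969 bases of Sfi1 with identities of 93.3% to 94.7%. The median mapping quality of alternative reads was 60 at all 10 sites, as at every listed substitution of both lines. Copies outside annotated transcripts were not searched, and their part in the Sfi1 counts was not tested.

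The Sfi1 insertion was of another kind. At 3106865, annotated as a splice acceptor site, 59 bases were inserted in 92% and 81.0% of reads in the LM8 libraries, or 40 of 46 reads (87.0%, interval 73.7% to 95.1%). The inserted bases are bases 1165 to 1223 of the Sfi1 transcript, and the site lies at transcript base 1224. The inserted stretch is thus the exonic sequence that directly precedes the site in the spliced RNA. The share was far above that of any Sfi1 substitution.

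The listed Hjurp sites lay mainly in its 3′ UTR and were read on its own reverse strand, and nearly all had a listed population frequency. On chromosome 1 (GRCm39), 9 MBT2 substitutions lay in ENSMUST00000054674, 7 in the 3′ UTR and 2 in codons, and 3 were annotated upstream of shorter transcripts. In LM8, 3 lay in the 3′ UTR and 1 in a codon. A frequency was listed at 11 of 12 sites in MBT2 (91.7%) and 4 of 4 in LM8, against 2.73% of coding and 3′ UTR substitutions in MBT2 and 2.76% in LM8. The exception is the upstream site 88202545. Only the site 88192706 was listed in both lines.

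**Figure D4:**
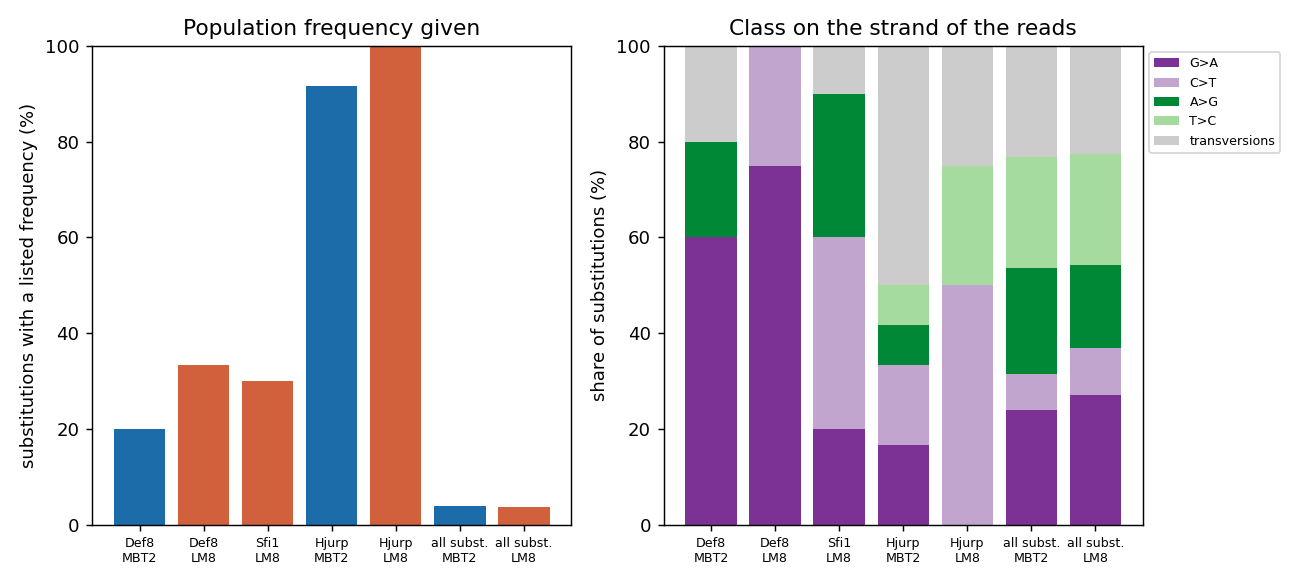
Left, percentage of substitutions with a listed population frequency. Right, percentage of substitutions in each class on the strand of the reads, with transversions pooled. Bars are the member genes by line, and all substitutions of MBT2 and of LM8. Hjurp stands at 91.7% in MBT2 and 100% in LM8 on the left, and Def8 in LM8 holds 75% G-to-A on the right.

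The shares of the Hjurp 3′ UTR sites in MBT2 were close to each other. At 88191706 (C-to-T) they were 19.1% and 18.1% in the MBT2 libraries, at 88191744 (G-to-T) 22.5% and 21.8%, and at 88191864 (C-to-A) 18.3% and 15.0%. At 88192527 (C-to-T) they were 18.1% and 19.8%, and at 88192576 (T-to-C) 16.7% and 15.8%. The 2 remaining sites of the 3′ UTR in MBT2 were 88190593 (A-to-G), with 11 of 81 reads (13.6%), and the shared site. All 7 thus lay between 13.6% and 22.1%, with 200 or more reads at 6 of them. Equal frequencies were listed for 88191706 and 88191744 (0.308), 38 bases apart, and for 88192527 and 88192576 (0.183), 49 bases apart. Sites farther apart had equal values too, 88190593 and the coding site 88193858 (both 0.0479). The LM8 site 88192098 also had 0.308.

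The shares of the coding sites of MBT2 lay outside that range in both directions, although the interval of G337D reached into it. R350H read 32.4% and 35.3% in the MBT2 libraries, or 117 of 346 reads (33.8%, interval 28.8% to 39.1%), and its listed frequency was 0.0479. G337D, 39 bases away, read 8.08% and 10.9%, or 19 of 200 reads (9.50%, interval 5.82% to 14.4%), with 0.144. The intervals of these neighbours did not meet.

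The upstream sites were shallow. At 88201418 (A-to-C) alternative reads were 2 of 29 and 9 of 35 in the MBT2 libraries, 11 of 64 in all. The sites 88202541 (G-to-C) and 88202545 (T-to-A), 4 bases apart and in the same phase set, had 5 of 43 and 4 of 36. All 3 upstream sites thus rested on few alternative reads.

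In LM8 the 3′ UTR shares of Hjurp were 22.9% or more, mostly at sites not listed in MBT2. At 88192098 (C-to-T) they were 20.3% and 26.1% in the LM8 libraries, and at 88192844 (C-to-T) 66.5% and 64.1%, or 292 of 447 reads (65.3%, interval 60.7% to 69.7%). The synonymous V164 (T-to-C) read 15.3% and 23.4%. The site at 65.3% is the highest Hjurp share in either line. None of the 9 placed MBT2 sites and none of the 4 LM8 sites had a match of 90% identity or more in a transcript of another gene.

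At the shared site 88192706 (C-to-G), alternative reads were 13.9% and 16.3% in MBT2, against 24.5% and 29.5% in LM8, so the lines' libraries did not overlap. The summed shares were 15.1% in MBT2 (67 of 443 reads) and 27.1% in LM8 (150 of 553). The difference was -12.0 percentage points, MBT2 minus LM8, with an adjusted p of 2.07e-04 by the exact test described for Def8. Without library 2 of each line it was -10.6 points with an adjusted p of 0.0838, and without library 1 the adjusted p was 0.0203, so the call was lost only without library 2. Of the 2 shared member sites, MBT2 was thus higher at the Def8 site and lower at the Hjurp site.

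Spacing, which is bound up with the choice of dense genes, also differed among them. Gaps were measured on the genome, so introns between sites count in them. The median gap between neighbouring sites of a gene was 130 bases for Hjurp in MBT2 and 608 in LM8. It was 995 for Def8 in MBT2 and 424 in LM8, and 2871 for Sfi1 in LM8. The Sfi1 sites spanned 27876 bases of the genome but lay between bases 1013 and 3654 of the spliced transcript, so the Sfi1 gap includes introns. Over all genes with 2 or more substitutions the median gap was 1654 bases in MBT2 and 1328 in LM8. In Hjurp of MBT2, 4 of 11 gaps were at most 75 bases, the length of a read (36.4% against 17.4% of all gaps in MBT2). The authors' filter was set to at most 2 variant events in a region, so denser groups of neighbouring sites may be missing from the lists. The median distance of the alternative base from a read end was 14 bases for Def8 in MBT2 and 17.5 in LM8, 21 for Sfi1 in LM8, and 20.5 for Hjurp in MBT2 and 15 in LM8. Over all substitutions it was 5 bases in each line, but it was 15 in MBT2 and 19 in LM8 at intronic substitutions outside Def8, and 14 in MBT2 and 17 in LM8 at other substitutions with a listed frequency. Def8 in both lines and Hjurp in LM8 thus lay in the range of these sets of their line. Hjurp in MBT2 (20.5) and Sfi1 in LM8 (21) lay above it. At coding and 3′ UTR substitutions, the class of the Sfi1 sites and most Hjurp sites, the median distance was 3 bases in MBT2 and 2 in LM8.

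The genes next in number of substitutions are given for comparison. Rn18s-rs5 in LM8 had 9 substitutions at a median share of 32.6%, and 0 of them had a listed frequency. In MBT2, Gm2682 had 5 intronic substitutions, all A-to-G, at a median of 33 reads, and Lmbrd2 had 5 in its coding sequence and 3′ UTR, also all A-to-G. In LM8, Ncl had 5 in its 3′ UTR, of which 4 were A-to-G. Snx5 had 6 in MBT2, and ENSMUSG00000095041, Gm37665 and Kmt2d had 6, 5 and 5 in LM8. Likeness here is the number of listed substitutions alone, and 6 more MBT2 genes had 5 like Gm2682 and Lmbrd2.

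Partner genes of the 3 members carried at most 2 substitutions each. For scale, 2301 genes in MBT2 and 2044 in LM8 had a substitution, and GENCODE M21 holds 55341 genes, expressed here or not. Of 23 genes of CENP-A deposition and the inner kinetochore, 3 had a substitution in MBT2 (Cenpi, Cenpk and Cenpo) and 4 in LM8 (Cenpc1, Cenpi, Cenpq and Npm1), with at most 2 in a gene. Of 18 centrin and centriole genes, 3 had one in MBT2 and 4 in LM8, with at most 1 in a gene. Of 15 genes of lysosome positioning, 6 had one in MBT2, among them Rab7, and 1 had one in LM8, Arl8a. In each of these 3 lists and both lines, the share of genes with a substitution was above that over all annotated genes. That comparison cannot set the lists apart from other expressed genes, because the 55341 genes were counted whether expressed here or not. Of 10 epithelial marker genes 0 had a substitution in either line, and of 10 osteoblast and mesenchymal markers 1 had one in each, Col3a1 in MBT2 and Runx2 in LM8. The lists hold variants and not expression, so the identity of the lines could not be checked from markers.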

How the data were processed

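RNA of 2 samples per line was sequenced as directional poly(A) libraries with 75-base paired reads, per the labels' protocols. The submitters' processing notes name bcl2fastq 2.17.1.14, cutadapt 1.9.1, STAR 2.7.9a, GATK 4.3.0 and GRCm39. The authors called both libraries of a line jointly with Mutect 2.2, filtered with GATK 4.1.5.0 and annotated 1 effect per record with SnpEff 5.1d, per the file headers. No header or label states how spliced reads were handled. The deposited unit is the count of reads per allele and library.

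A share is the alternative reads divided by all reads of both alleles, per library or with both libraries of the line added. Read strand was set where at least 10 oriented reads existed and 80% had 1 orientation, a limit chosen after seeing the data. Of 4451 coding and 3′ UTR substitutions, 4348 (97.7%) were placed in GENCODE M21 transcripts. No genome sequence was used, so copies were searched in transcripts with exact windows and with blastn 2.17.0, in place of the planned genome search. Fisher's exact tests, two-sided, were run per site on reads (scipy 1.17.1) and adjusted by Benjamini-Hochberg over all records or all shared sites at 0.05. The test between duplicate libraries was also run on simulated reads at LM8 depths, with changes placed only at sites deeper than those of Sfi1. Named were all records of the 3 genes and, in each line, the 5 other genes with the most substitutions, of which 1 is not reported here. Ties were broken by the number of private substitutions and then by name, and in MBT2 this divided genes tied at 5. Members and gene lists were chosen with earlier results of these data known. Alternatives were depth, alternative-read and share minimums, single libraries, window length and strand. The same-numbered libraries of the lines did not deviate together (r = -0.0222 across shared sites, which are not independent replicates), so the numbers were not taken as pairs.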

Additional observations from a re-analysis of the deposited data

How the results depend on the processing

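Of 109 alternative values, 81 were labelled the same as the reported one, 27 moved and 1 lost its call, and none changed direction. These labels did not follow the relative size of a change. The Sfi1 gap of 2871 bases was labelled the same at 1971 bases (minimum of 40 reads) and at 3969 (share of at least 0.1). The Def8 median share in LM8 was labelled moved at 2.65% against 2.70%. With a minimum of 40 reads, the Def8 median share in MBT2 was 24.6% and its median gap 1627 bases, Sfi1 kept 5 substitutions at a median of 10.6%, and the Hjurp gap in MBT2 was 396.5 bases. With a share of at least 0.1, Def8 in MBT2 had a gap of 363 bases and 0% A-to-G, Def8 in LM8 had 3 substitutions, a gap of 1635.5 bases and 33.3% G-to-A, Sfi1 had 3 substitutions and 0% A-to-G, and the Hjurp gap in MBT2 was 396.5 bases. With at least 5 alternative reads, Sfi1 had 3 substitutions. With both lines pooled, the gap was 265 bases for Def8 and 186 for Hjurp. By the annotated strand, an alternative added after seeing the data, Def8 had 0% A-to-G and 0% G-to-A in MBT2 and 25% G-to-A in LM8. At 90% identity, 2 Sfi1 alternative bases stood in another gene, against 0 exactly.

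From single libraries, the median share of Def8 in LM8 was 2.65% from either library against 2.70%, that of Sfi1 6.67% to 8.84%, and that of Hjurp in MBT2 16.1% to 17.4%. Shared sites that differed between the lines numbered 39 to 45 from single libraries, against 92, as fewer reads entered. The Hjurp difference was -13.2 to -10.6 points from single libraries, and -10.6 without library 2, with an adjusted p of 0.0838. With the library number as a replicate block (Cochran-Mantel-Haenszel test), 93 shared sites differed, and the adjusted p was 2.79e-156 for the Def8 difference of 30.5 points and 2.28e-04 for the Hjurp difference of -12.0 points. The block changed neither call.

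Depth limits the Sfi1 values: at 30 to 52 reads, a share near 6% rests on 2 or 3 reads.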

Other observations

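A record just outside Def8, looked up after the values of the gene were seen, shared the class and read orientation of most Def8 sites. At 124152686 on chromosome 8, annotated downstream of Tubb3 and 1177 bases before the first Def8 site, the LM8 list held a G-to-A change on the strand of the reads in 15 of 285 reads (5.26%), and 99.2% of its oriented reads were F1R2. Both traits are common: G-to-A made up 27.1% of all LM8 substitutions. Of the LM8 coding and 3′ UTR sites, 1235 lay in reverse-strand genes, where F1R2 reads are usual, against 824 in forward-strand genes. The depth of the record was below that of every LM8 site in Def8. Whether it belongs with them was not tested.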
